A study of Homo sapiens with 4 samples.

Results

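Messenger RNA levels of 8 genes that govern plasminogen activation on the cell surface and the start of coagulation were described in the CD166+ and the CD166- population of the lines SW1990 and Panc-1. The genes were PLAU, PLAT, PLAUR, SERPINE2, ANXA2, S100A10, F3 and TFPI. They were taken by name, and every probe that the platform annotation pairs with 1 of these symbols was used, which gave 16 of the 47315 probes on the array and 8 of the 20044 genes with a name. SW1990 and Panc-1 are established human pancreatic cancer cell lines, and CD166 (ALCAM) is an adhesion molecule of the immunoglobulin superfamily. Cells from cultures that had received no treatment named in the labels were stained with an antibody to CD166. CD166+ cells were those held by magnetic beads, CD166- cells those that passed through unlabelled. Total RNA of CD166+ cells and of CD166- cells of either line was hybridised to an Illumina HT-12v4 BeadChip, 1 array for each of the 4 populations. With 1 array a population, no difference within a line has a replicate check, and no p-value was computed there.

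Plasminogen is an inactive precursor that reaches tissues from the blood, and the urokinase-type activator (PLAU) and the tissue-type activator (PLAT) cut it to plasmin, a protease that dissolves fibrin and breaks down matrix proteins. Urokinase works at the cell surface when it is bound to its receptor (PLAUR), while the complex of annexin A2 (ANXA2) and S100A10 docks plasminogen and the tissue-type activator, and serpins such as SERPINE2 stop the activators. Tissue factor (F3) starts coagulation by binding factor VII, and tissue factor pathway inhibitor (TFPI) is its brake. Urokinase, its receptor and tissue factor are known in pancreatic cancer for their part in invasion and in the clotting tendency of the disease.

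The sorted marker itself, ALCAM, was measured at a normalized signal of 293 in CD166+ cells against 47.3 in CD166- cells of SW1990, with 235 in CD166+ cells against 44.3 in CD166- cells of Panc-1. Signals are background-corrected, quantile-normalized bead intensities with no unit, and a probe counts as detected at a detection p under 0.01. The arrays detected between 15565 and 16716 probes, with mean intensities before normalization of 325 to 413. Across 11640 genes detected on at least 1 array, the Panc-1 arrays correlated with each other at r = 0.989. The SW1990 arrays correlated at r = 0.827. SW1990 CD166+ cells had an r of 0.834 with the CD166+ cells and 0.817 with the CD166- cells of Panc-1, and SW1990 CD166- cells one of 0.874 with the CD166+ cells and 0.872 with the CD166- cells of Panc-1. These r values run over genes, which are not replicates. The epithelial marker E-cadherin (CDH1) was not detected on any array, and of 8 epithelial markers 7 were detected on the SW1990 CD166+ array, 6 on the SW1990 CD166- array, 6 on the Panc-1 CD166+ array and 5 on the Panc-1 CD166- array. Of 8 fibroblast and stellate cell markers, COL1A2 had a signal of 2148 in SW1990 CD166- cells and was not detected on the other arrays, which made their summed signal 2344 on the SW1990 CD166- array and 637 to 807 on the others. Of the same list COL1A1 and ACTA2 were detected on 3 arrays each, all but that of SW1990 CD166- cells, PDGFRB on the SW1990 CD166+ array and THY1 on both Panc-1 arrays (76.5 in CD166+ and 99.8 in CD166- cells), while COL3A1, DCN and LUM were not detected on any. Also undetected on all arrays were the leukocyte genes PTPRC and CD3E, whereas CD14 and CD68, the other 2 of 4 leukocyte markers, were detected on all arrays. Of 5 endothelial markers at most 1 was detected on an array.

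All 8 genes were detected on at least 1 array and 5 of them on all 4, as were 11 of the 16 probes. Where a gene has several probes, the brightest on average stands for it. In SW1990, CD166+ cells had over 2-fold more PLAUR and F3 and over 2-fold less PLAU and TFPI, while in Panc-1 none of the 8 genes differed by over 2-fold. The windows around the transcription starts of these 4 genes are shown because they were over 2-fold apart in SW1990, a choice made on that outcome. Each line runs 5′ to 3′ on the strand of the gene, from 250 bases before to 50 bases after a start given by RefSeq on GRCh38.p14, and a window was matched for 7 of the 8 genes by symbol. Capitals mark the letters TGANTCA of an AP-1 site, which read the same on both strands.
PLAUR, chr19:43670120-43670419, minus strand: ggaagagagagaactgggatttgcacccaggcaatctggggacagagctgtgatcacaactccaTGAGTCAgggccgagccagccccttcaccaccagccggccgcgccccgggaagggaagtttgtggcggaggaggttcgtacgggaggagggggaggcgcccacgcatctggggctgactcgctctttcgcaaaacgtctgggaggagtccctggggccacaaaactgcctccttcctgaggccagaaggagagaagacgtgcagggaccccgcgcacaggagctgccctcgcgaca
F3, chr1:94541710-94542009, minus strand: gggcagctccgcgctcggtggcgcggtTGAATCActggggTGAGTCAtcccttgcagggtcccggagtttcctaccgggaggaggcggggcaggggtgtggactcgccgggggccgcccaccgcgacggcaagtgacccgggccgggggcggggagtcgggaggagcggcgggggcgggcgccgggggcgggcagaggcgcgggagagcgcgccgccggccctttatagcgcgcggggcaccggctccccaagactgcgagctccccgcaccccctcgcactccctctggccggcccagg
PLAU, chr10:73910360-73910659, plus strand: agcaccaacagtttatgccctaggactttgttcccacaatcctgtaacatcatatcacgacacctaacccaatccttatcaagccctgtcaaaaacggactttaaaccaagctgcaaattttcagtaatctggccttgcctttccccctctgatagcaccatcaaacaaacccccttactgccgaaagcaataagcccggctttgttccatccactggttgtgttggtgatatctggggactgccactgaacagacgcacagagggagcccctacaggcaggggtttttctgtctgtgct
PLAU at a further start, chr10:73910882-73911181, plus strand: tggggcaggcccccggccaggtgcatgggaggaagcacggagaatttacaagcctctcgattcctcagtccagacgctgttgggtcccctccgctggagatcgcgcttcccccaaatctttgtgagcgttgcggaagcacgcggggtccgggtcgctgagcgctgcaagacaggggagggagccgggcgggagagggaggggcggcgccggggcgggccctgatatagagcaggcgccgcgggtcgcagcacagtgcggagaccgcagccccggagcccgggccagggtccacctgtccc
TFPI, chr2:187554386-187554685, minus strand: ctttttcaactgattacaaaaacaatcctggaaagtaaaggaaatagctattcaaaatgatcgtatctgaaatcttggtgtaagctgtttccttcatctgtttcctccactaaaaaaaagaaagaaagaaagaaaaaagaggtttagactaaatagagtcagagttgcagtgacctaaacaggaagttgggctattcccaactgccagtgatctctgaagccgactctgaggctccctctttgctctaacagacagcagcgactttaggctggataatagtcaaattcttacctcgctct

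The letters occurred once in the PLAUR window, from position -186 relative to the start, and at positions -223 and -210 in the F3 window. They did not occur in the PLAU and TFPI windows shown, and of the other genes with a window only ANXA2 held them, at position -127, so 3 of the 9 windows of these genes had a match, against 7.71% of 35116 windows of the same length over all genes. The letters GGGCGG of a GC box, on either strand, were in 6 of the 9 windows, against 45% of all windows. A match to letters is a description of sequence, and binding of a factor was not measured.

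PLAU encodes the urokinase-type activator and was measured by 1 probe. Its normalized signal was 54.4 in CD166+ cells against 3033 in CD166- cells of SW1990, with 6417 in CD166+ cells against 5645 in CD166- cells of Panc-1. SW1990 CD166+ cells thus stood alone at the bottom, just above the detection floor of 39.1 on that array, while the other 3 populations were bright. Before normalization the intensities were 107, 2802, 5859.7 and 5189.7 in the same order, so the gap was present before normalization. In SW1990 the signal was 55.8-fold lower in CD166+ than in CD166- cells (log2 fold -5.80), the 3rd largest of 4439 lower folds among 8504 genes detected on both arrays. In Panc-1 it was 1.14-fold higher in CD166+ cells (log2 fold 0.18). Between the lines, CD166+ cells of SW1990 were 118-fold below CD166+ cells of Panc-1 (log2 fold -6.88, the 2nd largest of 4308 lower folds), and CD166- cells of SW1990 were 1.86-fold below CD166- cells of Panc-1 (log2 fold -0.90). Fewer cells with the transcript and less transcript per cell cannot be told apart in RNA of sorted bulk cells.

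PLAT encodes the tissue-type activator, the other direct activator of plasminogen, and was close to background throughout. Its signal was 66.7 in CD166+ cells of SW1990 and not detected in CD166- cells of SW1990 (27.0), with 39.5 in CD166+ cells against 78.4 in CD166- cells of Panc-1. The lines therefore ran opposite ways. Where a population did not detect a gene, the floor of its array, the lowest signal among detected probes (37.4 to 41.5), was used in its place, so that the fold is a lower bound. PLAT was at least 1.61-fold higher in CD166+ than in CD166- cells of SW1990, but 1.99-fold lower in CD166+ than in CD166- cells of Panc-1 (log2 fold -0.99), where it had the 45th largest of 4948 lower folds. The activators differed in which population held the lowest signal, SW1990 CD166+ cells for PLAU and SW1990 CD166- cells for PLAT.

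PLAUR, the urokinase receptor, had the same order on all 3 of its probes, highest in SW1990 CD166+ cells, then in their CD166- counterparts, then in CD166+ cells of Panc-1 and lowest in CD166- cells of Panc-1. The brightest probe had a signal of 416 in CD166+ cells against 180.2 in CD166- cells of SW1990, with 120.3 in CD166+ cells against 61.3 in CD166- cells of Panc-1. It is the only one of the 8 genes higher in CD166+ cells of both lines on every probe and detected everywhere. The fold of CD166+ over CD166- cells was 2.31 in SW1990 (log2 fold 1.21) and 1.96 in Panc-1 (log2 fold 0.97), and the Panc-1 fold was the 46th largest of 4674 higher folds in a line whose populations were much alike. The other probes gave smaller folds, 1.58 and 1.37 for SW1990 and 1.41 and 1.21 for Panc-1. Between the lines the 3 probes lay closer together, at 3.46, 3.34 and 2.40-fold higher in SW1990 than in Panc-1 among CD166+ cells and 2.94, 2.98 and 2.12-fold higher among CD166- cells. PLAUR and its ligand PLAU thus ran opposite ways in SW1990, and the population with the highest receptor signal had the lowest PLAU signal.

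**Figure D1:**
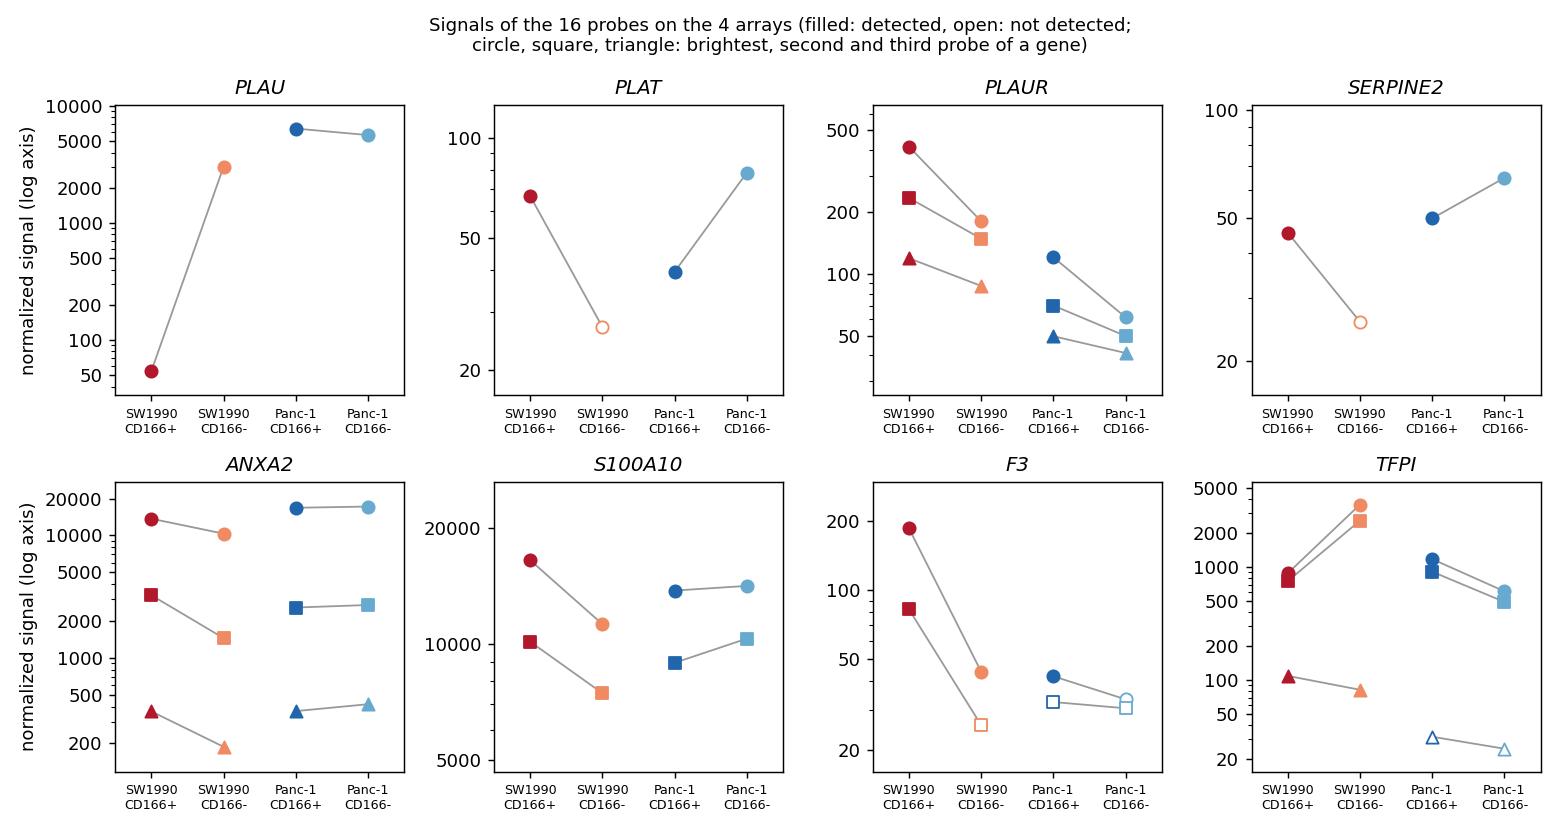
Normalized signal (log axis) of each of the 16 probes for both populations of SW1990 and of Panc-1, 1 array each, with filled marks for detected and open marks for undetected probes and 1 mark shape per probe. PLAU lies low, at 54.4, in SW1990 CD166+ cells only, the 3 PLAUR probes share 1 order over the arrays, and both brighter TFPI probes peak in SW1990 CD166- cells.

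SERPINE2 (protease nexin-1) is a serpin that inhibits urokinase, plasmin and thrombin. Its 1 probe had a signal of 45.5 in CD166+ cells of SW1990 and was not detected in CD166- cells of SW1990 (25.7), with 49.9 in CD166+ cells against 64.7 in CD166- cells of Panc-1. The 3 detected signals lay near the floor. The gene was at least 1.10-fold higher in CD166+ than in CD166- cells of SW1990 and 1.30-fold lower in CD166+ than in CD166- cells of Panc-1 (log2 fold -0.38), and it was not over 2-fold apart in any comparison. As for PLAT, the array without detection was that of SW1990 CD166- cells.

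ANXA2 and S100A10, the partners of the plasminogen docking complex, were bright on all 4 arrays. The brightest ANXA2 probe had a signal of 13704 in CD166+ cells against 10344 in CD166- cells of SW1990, with 16834 in CD166+ cells against 17224 in CD166- cells of Panc-1. Its intensities before normalization, 9518 to 17429, were near the top of the range of the arrays, whose brightest probes were at 21492 to 24867. The dimmer ANXA2 probes were higher in CD166+ cells of SW1990 by more, 2.24-fold (3248 in CD166+ and 1449.7 in CD166- cells) and 1.95-fold (365 in CD166+ and 188 in CD166- cells), against 1.32-fold on the brightest. In Panc-1 the 3 ANXA2 probes differed by 1.02, 1.05 and 1.14-fold, all slightly lower in CD166+ cells, although the brightest turned slightly higher (log2 fold 0.03) after median scaling. The annotated ANXA2 pseudogenes ANXA2P1, ANXA2P2 and ANXA2P3 are near-identical copies whose transcripts the probes may not separate from ANXA2. None of them was over 2-fold apart in any comparison, but some came close. In SW1990, ANXA2P3 was 1.99-fold and ANXA2P1 1.37-fold higher in CD166+ cells, and ANXA2P2 was 1.22-fold lower. Among CD166- cells ANXA2P1 was 1.99-fold lower in SW1990 than in Panc-1.

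S100A10 had a signal of 16523 in CD166+ cells against 11271 in CD166- cells of SW1990, with 13775 in CD166+ cells against 14166 in CD166- cells of Panc-1 on its brightest probe. The SW1990 CD166+ array was the highest and the SW1990 CD166- array the lowest. Intensities of this probe before normalization, 10469 to 19014, were also near the top of the range of the arrays. The other probe had 10148 in CD166+ cells against 7458 in CD166- cells of SW1990, with 8944 in CD166+ cells against 10334 in CD166- cells of Panc-1. The folds of CD166+ over CD166- cells in SW1990 were 1.47 and 1.36, and in Panc-1 both probes were lower in CD166+ cells, by 1.03 and 1.16-fold. Each probe of both partners was thus higher in CD166+ cells of SW1990, by 1.32 to 2.24-fold, and in Panc-1 none differed by more than 1.16-fold.

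F3, tissue factor, is the receptor that starts coagulation. Its brighter probe had a signal of 186 in CD166+ cells against 43.9 in CD166- cells of SW1990, with 42.0 in CD166+ cells of Panc-1, and it was not detected in CD166- cells of Panc-1 (33.3). Only SW1990 CD166+ cells were clearly above the floor. F3 was 4.24-fold higher in CD166+ than in CD166- cells of SW1990 (log2 fold 2.08, the 173rd largest of 4061 higher folds) and at least 1.08-fold higher in CD166+ than in CD166- cells of Panc-1. The other F3 probe was detected in SW1990 CD166+ cells alone, at 82.4, which is at least 1.99-fold above SW1990 CD166- cells and at least 2.21-fold above Panc-1 CD166+ cells. On the brighter probe CD166+ cells of SW1990 were 4.44-fold above CD166+ cells of Panc-1.

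TFPI, the inhibitor of the complex of tissue factor and factor VII, ran the other way in SW1990. Its brightest probe had a signal of 879 in CD166+ cells against 3564 in CD166- cells of SW1990, with 1176 in CD166+ cells against 609 in CD166- cells of Panc-1. The next probe had 749 in CD166+ cells against 2571 in CD166- cells of SW1990, with 909 in CD166+ cells against 491 in CD166- cells of Panc-1. On both probes SW1990 CD166- cells were the highest and Panc-1 CD166- cells the lowest. In SW1990 the signals were 4.06-fold (log2 fold -2.02, the 202nd largest of 4439 lower folds) and 3.43-fold lower in CD166+ cells. In Panc-1 they were 1.93-fold (log2 fold 0.95, the 49th largest of 4674 higher folds) and 1.85-fold higher in CD166+ cells. Among CD166- cells SW1990 was 5.85-fold above Panc-1 (log2 fold 2.55, the 52nd largest of 4660 higher folds), whereas among CD166+ cells it was 1.34-fold below (log2 fold -0.42), a sign that turned around when the probes were averaged (log2 fold 0.36).

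A further TFPI probe is annotated to another transcript, which encodes the beta form of the protein, and followed a different pattern. It had a signal of 109 in CD166+ cells against 82.0 in CD166- cells of SW1990 and was detected neither in CD166+ cells (31.5) nor in CD166- cells (24.7) of Panc-1. The transcript was 1.33-fold higher in CD166+ than in CD166- cells of SW1990, where the brighter probes were lower. Among CD166+ cells it was at least 2.91-fold higher in SW1990 than in Panc-1, and among CD166- cells at least 2.10-fold higher. F3 and the brighter TFPI probes thus moved in opposite directions in SW1990, with tissue factor higher and its inhibitor lower in CD166+ cells.

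**Figure D2:**
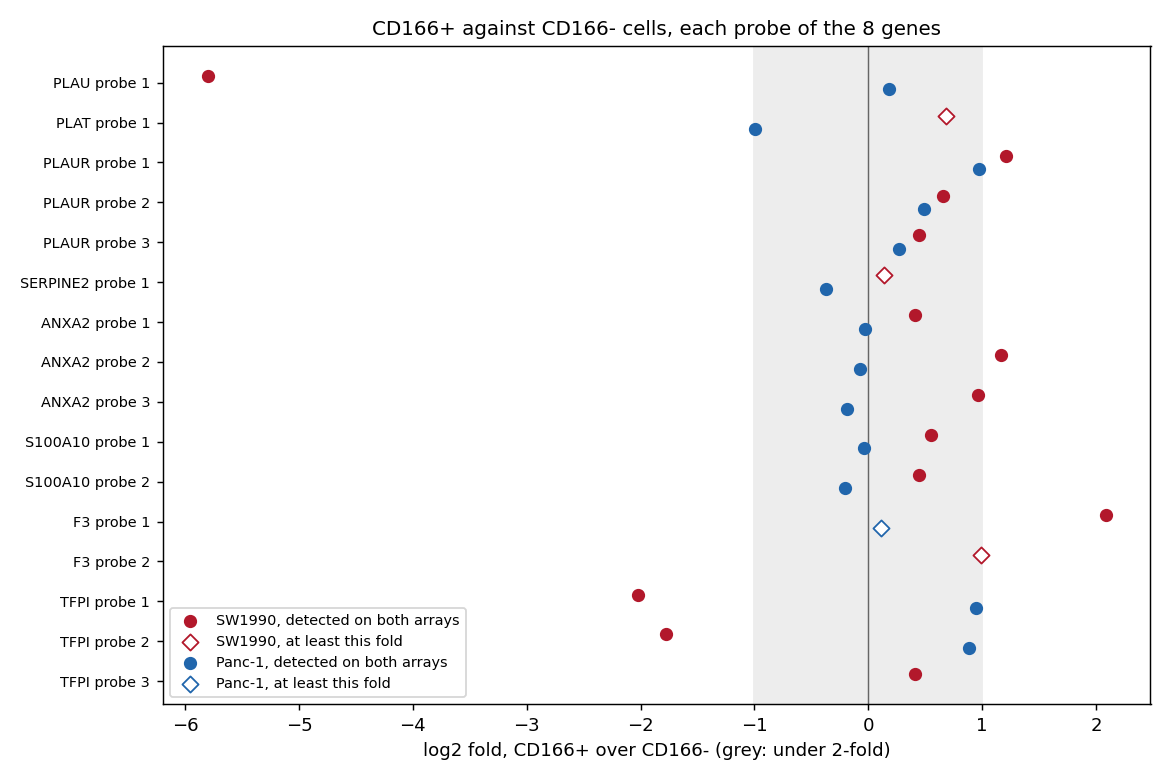
Log2 fold of CD166+ over CD166- cells for the 16 probes, in SW1990 and in Panc-1. Open diamonds mark lower bounds and the grey band differences under 2-fold. The dimmer F3 probe and the dimmest TFPI probe were detected on neither Panc-1 array and have no mark for that line. PLAU lies at -5.80 in SW1990 and 0.18 in Panc-1, the 3 PLAUR probes are above 0 in both lines, and the 2 brighter TFPI probes lie on opposite sides of 0 in the lines.

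Counted by gene, 2 of the 8 were over 2-fold higher in CD166+ than in CD166- cells of SW1990 (PLAUR and F3) and 2 over 2-fold lower (PLAU and TFPI). Of all 10783 genes tested in SW1990, 27.7% were over 2-fold apart, 13.6% higher and 14.2% lower, so the 4 of 8 stood beside a wide background. In Panc-1, 0 of the 8 passed 2-fold, where 1.01% of 10532 genes did, 0.598% higher and 0.408% lower. PLAUR, TFPI and PLAT came close to that limit in Panc-1, at 1.96, 1.93 and 1.99-fold. The median log2 fold of the 8 genes was 0.48 in SW1990 and 0.037 in Panc-1, beside -0.0036 and -0.0021 over all genes. As a measure of the spread between probes of 1 gene, the log2 folds of such probes had an SD of 0.44 in SW1990 over 1985 genes and of 0.22 in Panc-1 over 2296 genes. The folds of PLAU and of the brightest F3 and TFPI probes in SW1990 were several times that spread. The TFPI probes themselves disagreed in sign there, at log2 folds of -2.02, -1.78 and 0.41, with -1.13 for the mean over probes. The folds of S100A10 and of the brightest ANXA2 probe were close to the spread, whereas the other ANXA2 probes, at log2 folds of 1.16 and 0.96, were over it. Probes on 1 array share its RNA and do not stand in for replicate arrays.

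Beside the SW1990 differences, the summed signal of the fibroblast and stellate cell markers was 807 on the CD166+ and 2344 on the CD166- array, through COL1A2 as given above, while COL1A1, PDGFRB and ACTA2 of the same list were detected on the CD166+ and not on the CD166- array. The epithelial markers KRT7, EPCAM, KRT18, KRT19 and MUC1 were each over 2-fold higher on the SW1990 CD166+ array. Of the rest of that list, KRT8 was slightly lower there (4257 in CD166+ and 4691 in CD166- cells). CLDN4 was at least 1.31-fold higher and CDH1 was not detected. The 8 epithelial markers summed to 11586 on the CD166+ and 6957 on the CD166- array of SW1990. In Panc-1 they summed to 14548 on the CD166+ and 18181 on the CD166- array. The brightest there were KRT8 (4176 in CD166+ and 7082 in CD166- cells) and KRT19 (8679 in CD166+ and 9339 in CD166- cells). Both were lower in CD166+ cells, as were KRT18 and MUC1, all by under 2-fold. KRT7 went the other way, with 212 in CD166+ and no detection in CD166- cells (33.5), a fold of 5.45 or more. EPCAM did so by 1.65-fold (293 in CD166+ and 178 in CD166- cells). CDH1 and CLDN4 were undetected on both Panc-1 arrays. The part of these markers in the differences was not tested. In Panc-1, 35 genes with a signal over 1000 in CD166+ cells of SW1990 and no detection in CD166- cells of Panc-1 reached, at the median, 3.04% of their SW1990 CD166+ level on the Panc-1 CD166+ array. When that share of the SW1990 CD166+ signal was subtracted from the Panc-1 CD166+ array, the log2 folds in Panc-1 were 0.82 for PLAUR, 0.92 for TFPI and -1.05 for PLAT, and the lower bound of F3 became 0. Such a subtraction can only lower these log2 folds.

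**Figure D3:**
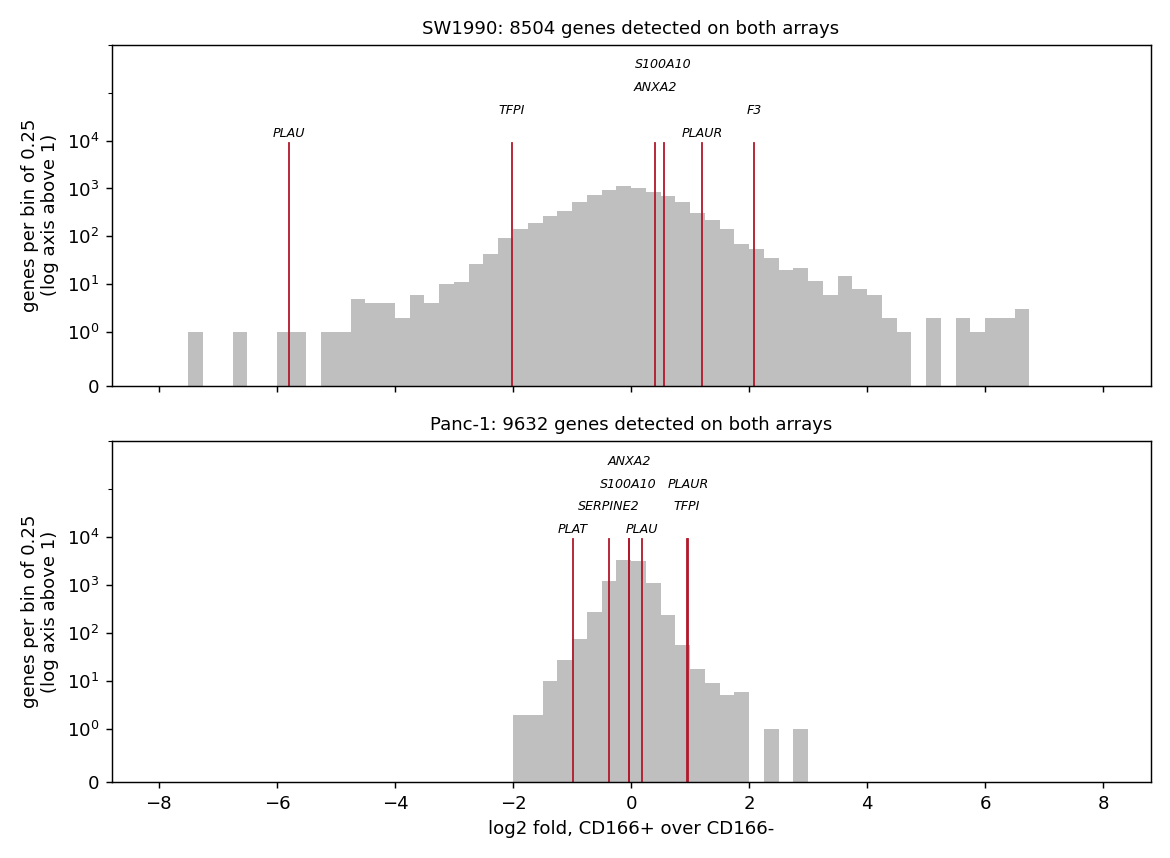
Number of genes (log axis above 1) by log2 fold of CD166+ over CD166- cells, in bins of 0.25, for genes detected on both arrays of SW1990 (8504) and of Panc-1 (9632), with red lines at those of the 8 genes detected on both. PLAU lies at the far end of the wide SW1990 distribution, and PLAUR, TFPI and PLAT lie in the tails of the narrow Panc-1 distribution.

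Between the lines, PLAUR was the gene over 2-fold apart in both populations. Among CD166+ cells, PLAUR (3.46-fold) and F3 (4.44-fold) were over 2-fold higher in SW1990 than in Panc-1 and PLAU over 2-fold lower, 3 of 8 genes beside 27% of 11119 genes (12.9% higher and 14.2% lower). Among CD166- cells, PLAUR (2.94-fold) and TFPI (5.85-fold) were over 2-fold higher in SW1990 than in Panc-1, 2 of 8 genes beside 22.7% of 10694 genes (10.6% higher and 12.1% lower). F3 was at least 1.13-fold higher in SW1990 than in Panc-1 among CD166- cells, where Panc-1 did not detect it. PLAT was 1.69-fold higher in SW1990 than in Panc-1 among CD166+ cells and at least 1.89-fold lower among CD166- cells, and SERPINE2 was 1.10-fold and at least 1.56-fold lower. ANXA2 was 1.23-fold lower in SW1990 than in Panc-1 among CD166+ cells, a sign that turned after median scaling (log2 fold 0.21), and 1.67-fold lower among CD166- cells.

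Both lines were then fitted together with limma, with CD166 population and cell line as terms, over 10367 genes detected on at least 2 arrays, with undetected signals as measured. For CD166+ against CD166- cells, 0 genes passed an adjusted p of 0.05 (0% of all), with a lowest adjusted p of 0.922 and 160 genes at an unadjusted p under 0.05 (1.54%). Of the 8 genes, 1 was among these, PLAUR, with a log2 fold of 1.09 ± 0.37 (SE) and an adjusted p of 0.922, higher in CD166+ cells of both lines. This membership was not stable, since none of the 8 genes had an unadjusted p under 0.05 without the block, with an intensity trend, by the methods' t-test, on the scaled intensities or with the mean over probes. F3 followed with 1.21 ± 0.55 (adjusted p = 0.922). Its direction in Panc-1 rests on a lower bound (log2 fold 0.11) that became 0 with the mean over probes. For PLAU, with -2.81 ± 1.45 (adjusted p = 0.922), and TFPI, with -0.54 ± 0.78 (adjusted p = 0.922), the lines disagreed in sign, and the average describes neither. The other 4 genes had log2 folds of 0.16 to 0.26, with adjusted p of 0.924 to 0.981. ALCAM itself, with 2.52 ± 0.36, also had an adjusted p of 0.922, so the fit, with 1 residual degree of freedom, did not call even the sorted marker. An exact permutation test over 2 pairs cannot give a two-sided p below 0.5.

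For SW1990 against Panc-1 in the same fit, 84 genes (0.81%) passed an adjusted p of 0.05 and none of the 8 did, with 1692 genes (16.3%) at an unadjusted p under 0.05. PLAUR, with 1.67 ± 0.37 (adjusted p = 0.151), and PLAU, with -3.89 ± 1.45 (adjusted p = 0.3002), were among these. The direction of both was the same in CD166+ and CD166- cells. F3 had a log2 fold of 1.28 ± 0.55 (adjusted p = 0.349), and TFPI one of 1.06 ± 0.78 (adjusted p = 0.567) with opposite signs in the populations. The remaining 4 genes had log2 folds of -0.73 to -0.034, with adjusted p of 0.496 to 0.975.

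Of 38 further genes of these pathways, 35 had a named probe, and 19 of those were detected on at least 1 array and 13 on all 4. Plasminogen itself (PLG) was not detected on any array, with signals of 21.6 to 23.7. Nor were the coagulation factors F2 (prothrombin), F7 and F10. Of 7 inhibitors listed, 2 were not analysed here, and of the 5 with a named probe SERPINI1 alone was detected, in SW1990 CD166+ cells (39.6). In SW1990, 2 of 18 tested genes were over 2-fold higher in CD166+ than in CD166- cells and 2 over 2-fold lower, beside 13.6% higher and 14.2% lower over all genes, so these counts did not stand above the background. In Panc-1, 0 of 17 tested genes were over 2-fold apart, beside 1.01% of all genes.

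Vitronectin (VTN), a matrix protein that the urokinase receptor binds, had a signal of 264 in SW1990 CD166+ cells and was not detected on the other 3 arrays, at least 6.36-fold above SW1990 CD166- cells. The endothelial protein C receptor (PROCR), which serves the anticoagulant protein C pathway, had 387 in CD166+ cells against 145 in CD166- cells of SW1990, with 729 in CD166+ cells against 486 in CD166- cells of Panc-1. It was 2.67-fold higher in CD166+ than in CD166- cells of SW1990 and its log2 fold was 0.59 for Panc-1. The mannose 6-phosphate receptor (IGF2R), a co-receptor that binds PLAUR and plasminogen, had 1028.5 in CD166+ cells against 2743 in CD166- cells of SW1990, with 6063 in CD166+ cells against 5036 in CD166- cells of Panc-1. It was 2.67-fold lower in CD166+ than in CD166- cells of SW1990, and its lowest signal was in the same population as that of PLAU. The thrombin receptor family member F2RL2 was not detected in CD166+ cells of SW1990 (21.4), where the CD166- cells had 224. In Panc-1 it had 39.4 in CD166+ cells and was not detected in CD166- cells (36.9). It was thus at least 5.73-fold lower in CD166+ than in CD166- cells of SW1990.

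Between the lines more of these genes were over 2-fold lower than over 2-fold higher in SW1990. The counts that follow were not repeated under the alternative ways of processing. Among CD166+ cells PROS1 (2.05-fold) and F12 (2.09-fold) were near the limit, and the fold of MRC2 (2.54) was a lower bound. Among CD166+ cells 7 of 19 were over 2-fold lower in SW1990 than in Panc-1 (AHNAK, ANXA2R, F12, MRC2, IGF2R, SORL1 and PROS1) and 1 over 2-fold higher (VTN), beside 14.2% lower and 12.9% higher over all genes. Among CD166- cells 5 of 16 were lower (AHNAK, ANXA2R, F12, SORL1 and PROCR) and 2 higher (PLGRKT and F2RL2), beside 12.1% lower and 10.6% higher over all genes. AHNAK, a scaffold protein that binds S100A10, had signals of 1849 in CD166+ cells against 3168 in CD166- cells of SW1990, with 7655 in CD166+ cells against 9058.5 in CD166- cells of Panc-1. Coagulation factor XII (F12), a protease of the contact system, had 456 in CD166+ cells against 388 in CD166- cells of SW1990, with 952 in CD166+ cells against 813 in CD166- cells of Panc-1, and was 2.09 and 2.10-fold lower in SW1990. ANXA2R, described as a receptor for annexin A2, had 149 in CD166+ cells against 79.5 in CD166- cells of SW1990, with 489.8 in CD166+ cells against 491 in CD166- cells of Panc-1. It was lower in SW1990 in both populations. SORL1, a sorting receptor of the LDL receptor family that binds the urokinase complex, had 52.7 in CD166+ and was not detected in CD166- cells of SW1990, with 389 in CD166+ cells against 375 in CD166- cells of Panc-1. MRC2, a collagen uptake receptor that associates with PLAUR, was not detected in CD166+ cells of SW1990 (27.8) and had 55.3 in CD166- cells of SW1990, with 99.2 in CD166+ cells against 103 in CD166- cells of Panc-1. PROS1 (protein S), a cofactor of TFPI and of protein C, had 77.2 in CD166+ cells against 73.9 in CD166- cells of SW1990, with 159 in CD166+ cells against 129.8 in CD166- cells of Panc-1. The plasminogen receptor PLGRKT was higher in SW1990, with 336 in CD166+ and 515 in CD166- cells, while Panc-1 had 213 in CD166+ cells against 202 in CD166- cells.

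**Figure D4:**
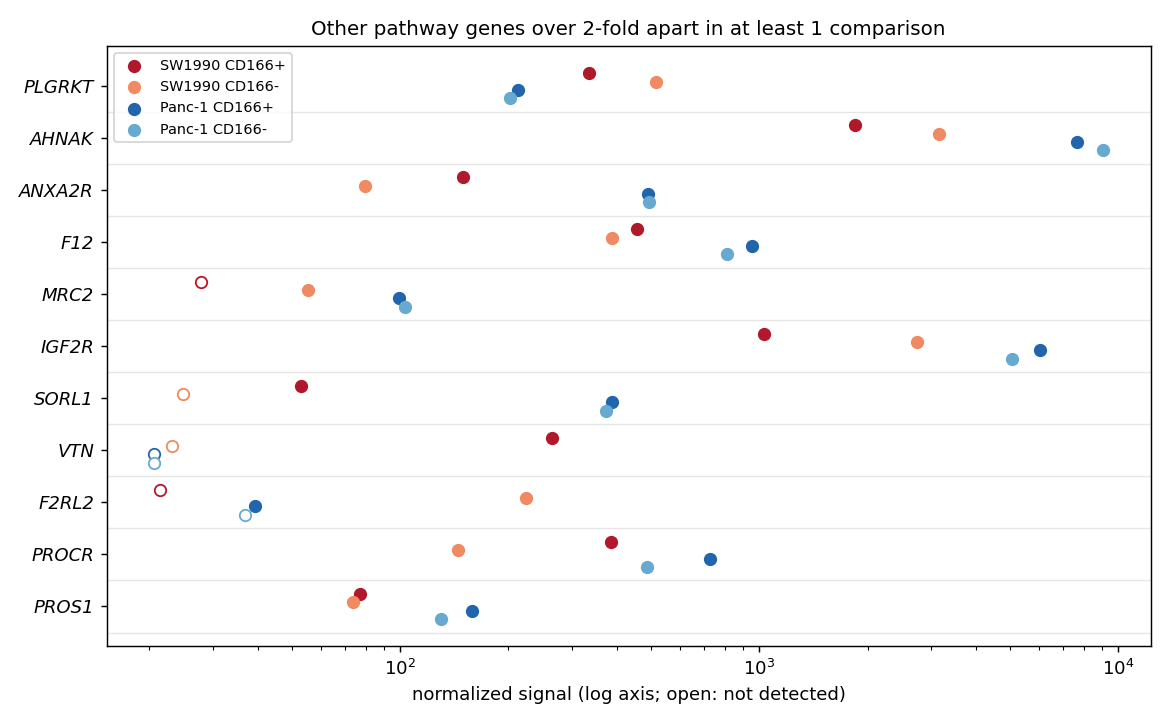
Normalized signal (log axis) on each of the 4 arrays of the 11 other pathway genes over 2-fold apart in at least 1 comparison, with open circles where the probe was not detected. VTN is detected in SW1990 CD166+ cells only, at 264, and AHNAK, ANXA2R, F12 and SORL1 are lower in both SW1990 populations than in both Panc-1 populations.

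Likeness of pattern was measured as the Euclidean distance between log2 signals centred over the 4 arrays, among 11640 genes detected on at least 1 array. Closest to PLAU were COXFA4L3 (distance 0.49), CHD5 (0.56) and MALL (0.63), each not detected in SW1990 CD166+ cells and at 825 to 3668 on the other arrays. Closest to PLAUR were DNAJA4 (0.38), ZNHIT3 (0.41) and ACAA2 (0.41), each with the order over the arrays that PLAUR had. Closest to TFPI were DDR2 (0.41), SDCCAG8 (0.45) and SNORD17 (0.47). Each distance rests on 4 points from 4 arrays and is a description only.

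The directions of the larger folds held under the ways of processing that were tried. The PLAU log2 fold in SW1990 ran between -5.80 and -4.82, that of F3 between 1.10 and 2.28, that of TFPI between -2.02 and -1.13 and that of PLAUR between 0.77 and 1.52. PLAUR was under 2-fold on the intensities as the authors scaled them and with the mean over probes. The PLAT log2 fold in SW1990, with 1 side undetected, ran between 0.073 on the scaled intensities and 1.31 with undetected sides as measured. In Panc-1 PLAUR ran between 0.58 and 0.97, TFPI between 0.73 and 0.95 and PLAT between -1.05 and -0.51. Between the lines in CD166+ cells PLAU ran between -6.88 and -5.88, F3 between 1.06 and 2.30 and PLAT between 0.049 and 0.83. In CD166- cells TFPI ran between 2.22 and 2.57, PLAUR between 0.88 and 1.55 and PLAT between -1.54 and -0.47.

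**Figure D5:**
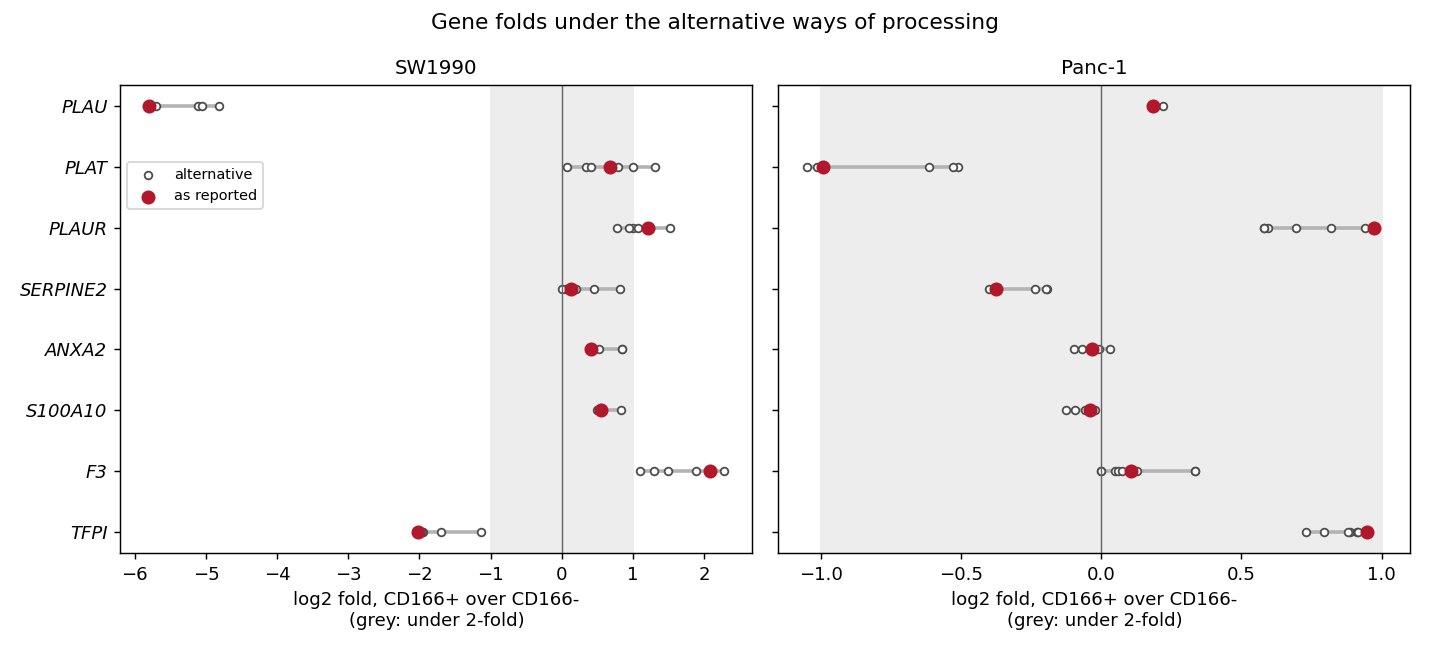
Log2 fold of CD166+ over CD166- cells of each gene in SW1990 and Panc-1 (separate scales), as reported (red) and under the alternative ways of processing (open), with the grey band for differences under 2-fold. PLAU, TFPI and F3 in SW1990 lie outside the band under all of them, and PLAT in Panc-1 lies between -1.05 and -0.51.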

How the data were processed

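Total RNA of the 4 sorted populations was measured on Illumina HT-12v4 arrays, 1 per population. The authors deposited mean bead intensity values of 47315 probes without normalization, from BeadStudio 3.2.3, with a detection p-value beside every value. They also deposited scaled intensity values, each array multiplied by 1 factor (0.857 to 1.09), used here as an alternative. In the platform annotation 30111 probes have 1 gene, 8 have several and 17196 have none, and 27 Entrez numbers were not found among RefSeq genes of GRCh38.p14. Normalization was by neqc of limma 3.58.1 in R 4.3.3, with background taken from the detection p-values, an offset of 16 and quantiles equalised over the 4 arrays. A gene was called when its signals were over 2-fold apart, with detection (p under 0.01) on the brighter array. The 2-fold limit is that of the study, whose gene lists also set a p-value limit and compared averages of CD166+ and CD166- cells. For an undetected signal the array's floor was used, unless the measured signal was above it. Across the lines, lmFit and eBayes of limma were run on log2 signals made from the deposited intensities, with the line as a block and Benjamini-Hochberg adjustment. Pairs of arrays come from the same cell line, and nothing in the labels says that arrays come from separate cultures.

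The 8 genes, the 38 other pathway genes, the marker lists and the alternatives were chosen with earlier results of these data known. All probes of the 8 genes are accounted for. Other pathway genes are named where detected and over 2-fold apart in at least 1 comparison, besides PLG and the annexin A2 pseudogenes. F2, F7, F10 and SERPINI1 were named after their values were seen. The alternatives tried were an offset of 50 or no background correction, scaling by medians or by the authors, a detection p under 0.05, measured values for undetected signals, the mean over probes, limits of 1.5-fold and 3-fold, and subtraction of SW1990 CD166+ signal from the Panc-1 CD166+ array. For limma they were the fit without block, an intensity trend, the methods' t-test, all genes or those detected on all 4 arrays, and each line or population alone.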

Additional observations from a re-analysis of the deposited data

Results flagged for a closer look

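For 6 of the 8 genes the fold of CD166+ over CD166- cells had opposite signs in the lines. The share of all genes with opposite signs was not computed, so this count has no background beside it. The difference was not tested, since each line has 1 array per population. The log2 fold in SW1990 minus that in Panc-1 was -5.99 for PLAU and -2.97 for TFPI, where SW1990 was over 2-fold lower in CD166+ cells. It was 1.68 for PLAT and 0.51 for SERPINE2, both with an undetected signal in SW1990 CD166- cells, so that these are lower bounds. It was 0.59 for S100A10 and 0.44 for ANXA2, with log2 folds in Panc-1 of only -0.04 and -0.03. With median scaling the ANXA2 log2 fold in Panc-1 became 0.03, so its signs were no longer opposite.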

How the results depend on the processing

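The count of 4 genes over 2-fold apart in SW1990 ran between 3 and 5. It was 5 at 1.5-fold (48.9% of all genes) and with undetected sides as measured (31.4%). It was 3 on the scaled intensities (19.8%), with the mean over probes (22.6%) and at 3-fold (12.9%). Between the lines in CD166+ cells the count of 3 became 4 at 1.5-fold, beside 47.6% of all genes. In Panc-1 the count of 0 became 1 with median scaling (0.987% of all genes) and 1 with the SW1990 CD166+ share subtracted (0.959%). PLAT was lower in both, and the subtraction can only lower log2 folds there. At 1.5-fold the count in Panc-1 was 3 (PLAUR and TFPI higher, PLAT lower), beside 5.17% of all genes at that limit. Between the lines in CD166- cells the count of 2 became 1 on the scaled intensities (14.3% of all genes) and 1 at 3-fold (9.70%), TFPI in both. It became 3 at a detection p under 0.05 (21.5% of all genes), with PLAT added as lower. With undetected sides as measured it was 4 (26.1%), with PLAT and SERPINE2 added as lower. At 1.5-fold it was 6, beside 44.1% of all genes. In the limma fit the effect of the line turned sign for S100A10 (-0.034 as reported), to 0.31 with median scaling and 0.047 on the scaled intensities. The effect of CD166 turned sign on the scaled intensities for PLAT (-0.079, against 0.16 as reported) and SERPINE2 (-0.037, against 0.23). None of the 8 genes passed limma's adjusted p in any alternative, the fit without the replicate block included, which called 0 of them. The 84 genes called between the lines became 188 without the block, 135 among genes detected on all 4 arrays, 308 on the scaled intensities, 29 with median scaling, 13 without background correction, 4 by the methods' t-test, and 0 without the filter on dim probes, with an offset of 50 or with the mean over probes. With the lines or populations taken alone, the average of PLAU for CD166 was -5.80 in SW1990 and 0.18 in Panc-1, and that of TFPI was -2.02 in SW1990 and 0.95 in Panc-1. PLAT (1.31 in SW1990 and -0.99 in Panc-1) and SERPINE2 (0.83 in SW1990 and -0.38 in Panc-1), with undetected signals as measured, also had opposite signs.

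Scaling moved the median log2 fold of all genes in SW1990, to 0.21 with median scaling and -0.16 on the scaled intensities. Of the genes over 2-fold apart there, 48.9% were higher in CD166+ cells as reported, 66.0% with median scaling and 42.9% on the scaled intensities. In Panc-1 that share was 59.4% as reported, 75% on the scaled intensities, 78.6% without background correction, 70.2% with an offset of 50, 89.3% at 3-fold and 49.3% at 1.5-fold. It fell to 38.6% (39 higher and 62 lower) with the SW1990 CD166+ share subtracted, which turned the majority. That subtraction only takes signal off the Panc-1 CD166+ array, so the direction of this shift was set beforehand. Among CD166+ cells the median moved to 0.21 and -0.23, and the share higher in SW1990 was 47.5% as reported, 64.8% and 34.7%. Among CD166- cells it was 46.6% as reported and 33.2% on the scaled intensities. The number of arrays limits the precision, and signals near the floor, those of PLAT, SERPINE2, F3 in Panc-1 and PLAU in SW1990 CD166+ cells, limit the folds that rest on them. The causes of these shifts were not tested.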
